A study of Mus musculus with 8 samples.

Results

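The IFIT genes encode interferon-induced proteins with tetratricopeptide repeats. The family was chosen by gene symbol, as the rows of the deposited count table named Ifit1, Ifit2, Ifit3, Ifit3b, Ifit1bl1 and Ifit1bl2. All 6 were found among the 55367 genes of the table. They were followed in Neuro2a, a mouse neuroblastoma cell line. CRISPRa cultures had received 750 ng of an sgRNA plasmid and 750 ng of a plasmid for sadCas9-VP64, a catalytically inactive Staphylococcus aureus Cas9 fused to a transcriptional activator. No-sgRNA cultures are labelled as treated with VP64 without an sgRNA, and no plasmid amount is given for them. By these labels both groups carried the activator, and an sgRNA plasmid is listed for CRISPRa cultures alone. The presence of a guide and the presence of that plasmid cannot be told apart. Counts of poly(A)-enriched RNA were analysed for replicates 2, 3 and 5 of CRISPRa and replicates 2, 3 and 4 of no sgRNA. The labels list 8 samples, of which replicate 1 of CRISPRa and replicate 5 of no sgRNA are not used here. Nothing in the labels says that replicates were separate cultures, so p-values measure the spread between these libraries, which may be technical.

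IFIT proteins are cytoplasmic RNA-binding proteins of the antiviral response. Ifit1 protein binds RNA whose cap lacks 2′-O methylation and blocks its translation, and IFIT proteins also bind subunits of the translation initiation factor eIF3. Transcription of the genes is switched on by interferon through a transcription factor complex that includes Stat2 and Irf9 and binds the interferon-stimulated response element (ISRE) in their promoters. Interferon regulatory factors activated by RNA or DNA sensors can bind the same element.

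The 6 genes lie in 1 cluster on chromosome 19, from 34550694 to 34650009 on GRCm38 (mm10), a span of 99.3 kb. All are annotated as protein coding, and their spans in the count table equal those of the GENCODE M21 annotation. In genomic order, Ifit2 (34550694 to 34576419, plus strand, 3 or 4 exons) is followed by Ifit3 (34583531 to 34588731, plus strand, 2 exons) and Ifit1bl1 (34592891 to 34601956, minus strand, 2 exons). Then come Ifit3b (34607970 to 34613401, plus strand, 2 exons), Ifit1bl2 (34617049 to 34640743, minus strand, 3 exons) and Ifit1 (34640871 to 34650009, plus strand, 2 exons). Ifit1bl2 and Ifit1 are transcribed away from each other, and only 127 bases separate their starts. No exon base of any member overlaps an exon of another gene in the table.

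Upstream sequences are shown because 5 of the 6 members had an ISRE core in at least 1 of the windows searched. The cluster also holds 1 pair of genes with a common upstream stretch and 1 pair of near copies. The sequences come from RefSeq (GRCm38.p6), which gave 9 start-site windows for the 6 members. Each window ran from 250 bases before to 50 bases after a start. Capitals mark matches to GAAANNGAAA, which reads TTTCNNTTTC on the other strand. Both strands were searched. The stretch printed for Ifit1 is the whole interval between Ifit1bl2 and Ifit1. The others are the 200 bases that end before the RefSeq start.
Ifit1 and Ifit1bl2 (chr19:34640744-34640870, plus strand): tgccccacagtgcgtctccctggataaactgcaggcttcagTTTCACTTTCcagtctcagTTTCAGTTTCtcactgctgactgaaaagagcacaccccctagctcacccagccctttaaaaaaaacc
Ifit3 (chr19:34583329-34583528, plus strand): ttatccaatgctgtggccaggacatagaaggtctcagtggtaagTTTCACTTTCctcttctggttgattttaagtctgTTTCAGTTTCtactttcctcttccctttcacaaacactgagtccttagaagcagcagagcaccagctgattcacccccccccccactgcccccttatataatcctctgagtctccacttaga
Ifit3b (chr19:34607757-34607956, plus strand): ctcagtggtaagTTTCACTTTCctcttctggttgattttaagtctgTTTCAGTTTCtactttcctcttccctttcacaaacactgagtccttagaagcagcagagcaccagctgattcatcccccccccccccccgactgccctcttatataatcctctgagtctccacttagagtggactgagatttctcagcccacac
Ifit1bl1 (chr19:34601969-34602168, minus strand): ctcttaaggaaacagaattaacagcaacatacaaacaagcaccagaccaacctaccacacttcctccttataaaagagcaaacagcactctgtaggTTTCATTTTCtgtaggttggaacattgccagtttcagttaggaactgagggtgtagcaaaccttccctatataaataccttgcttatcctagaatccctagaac
Ifit2 (chr19:34550494-34550693, plus strand): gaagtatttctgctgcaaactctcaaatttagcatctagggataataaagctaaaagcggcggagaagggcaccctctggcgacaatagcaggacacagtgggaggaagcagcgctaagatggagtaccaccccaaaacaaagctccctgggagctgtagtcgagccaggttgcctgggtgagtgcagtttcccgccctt

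Of 32851 RefSeq windows of 300 bases, 3.44% held at least 1 match and 0.225% held 2 or more. The windows of Ifit1, Ifit3 and Ifit3b and the first window of Ifit1bl2 held 2 matches each. Those of Ifit1 and Ifit1bl2 are the same pair of matches, seen from either side. The Ifit3 and Ifit3b stretches were 96.0% identical over 174 aligned columns, with 1 mismatch and 6 gap columns, so their matches are copies too. Both windows of Ifit1bl1 held 1 match, and neither window of Ifit2 did. The Ifit2 windows surround the starts at 34550694 and 34551088, and the rest of its span, to 34576419, was not searched. Whether a match lies outside the windows of any member was not tested. A match is a description of these letters and does not show that a factor was bound.

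Total counts ran from 29739422 to 34248514 per library. In each group replicates 2 and 3 were closer to each other (chi-square per degree of freedom 4.73 with CRISPRa and 5.98 without sgRNA) than either was to the remaining library (14.1 to 17.1). Of 15 neuroblastoma or sympathoadrenal markers, 12 passed the filter on low counts. At an adjusted p under 0.05 in edgeR, 2 of them rose and 3 fell, beside 9.47% and 9.25% of all tested genes. The list summed to less with CRISPRa, 3802 to 4154 CPM (counts scaled to library size with TMM factors) against 4316 to 4673 CPM without sgRNA. The macrophage list summed to 1.42 to 2.00 against 0.790 to 1.85 CPM, with Itgam, Cx3cr1 and Adgre1 at 0 in every library. The T or B cell list summed to 0.123 to 0.290 against 0.0632 to 0.197 CPM, with Cd3e and Cd3d at 0. The fibroblast list was lower with CRISPRa (14.6 to 21.4 against 28.6 to 32.4 CPM, Col3a1 at 0), the endothelial list stood at 8.42 to 11.6 against 10.1 to 13.7 CPM (Kdr at 0), and the Schwann or glial list at 3.08 to 3.92 against 2.63 to 4.29 CPM. The part of these lists in the results on the IFIT genes was not tested. The targeted gene, Scn2a, stood at 7.81 ± 0.714 CPM with CRISPRa and 5.61 ± 1.31 CPM without sgRNA (SD, n = 3), and the difference of 0.48 on the log2 scale did not pass edgeR's test (adjusted p 0.0899). For Scn2a the authors' deposited table gives 0.62 with an adjusted p of 0.00138.

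All 6 members passed the filter, and 5 of them rose with CRISPRa at an adjusted p under 0.05 in edgeR's quasi-likelihood test over 15117 genes. None fell. The share of all tested genes called higher was 9.47%. Ifit1, Ifit3, Ifit3b and Ifit1bl2 rose by 4.86 to 6.56 on the log2 scale and Ifit2 by 2.68, while Ifit1bl1 did not pass. The median log2 fold change of the members was 5.10, against -0.0071 over all tested genes. For all 6 members the lowest CRISPRa value exceeded the highest control value, as it did for 17.7% of tested genes; in either direction the groups did not overlap for 36.4%. The other tools run also called 5 members higher, DESeq2 with 10.7% and limma-voom with 9.52% of all genes called higher. On the 4 libraries numbered 2 and 3 alone, 5 members passed and the median over all 6 was 5.20. That subset leaves out the most distant library of each group, so passing there is no separate check. The summed counts of the family were 11341, 10847 and 10616 with CRISPRa and 633, 633 and 580 without sgRNA, in the order of replicates given above. They made up 0.0331% ± 0.00022 of all counts with CRISPRa and 0.00200% ± 0.00018 without sgRNA (SD, n = 3), a 16.5-fold difference (exact two-sided permutation p = 0.1, the smallest that 3 against 3 allows). In bulk RNA, more responding cells and more RNA per cell cannot be told apart.

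**Figure D1:**
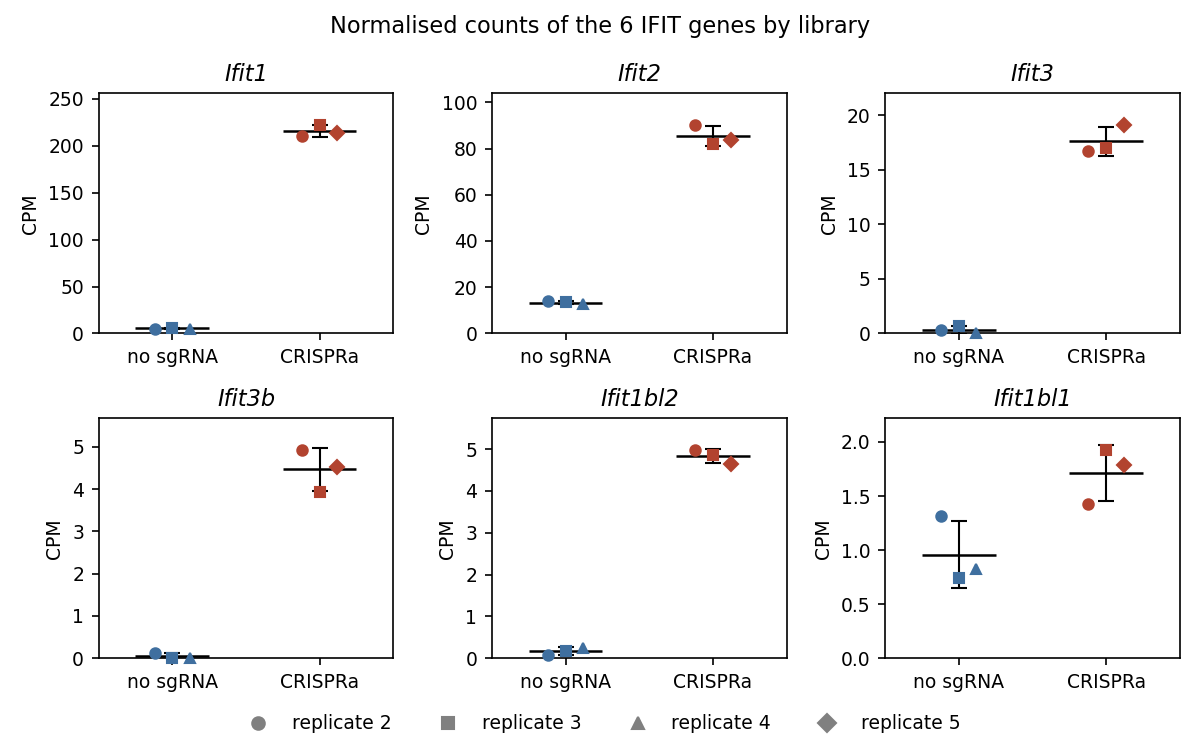
Normalised counts (CPM) of each IFIT gene in the 3 no-sgRNA libraries (blue) and the 3 CRISPRa libraries (red), with the mean as a line, the SD as a bar and the symbol giving the replicate. The vertical scale differs between genes and starts at 0; the groups stand far apart for every gene except Ifit1bl1, where no-sgRNA replicate 2 (1.31 CPM) lies close to CRISPRa replicate 2 (1.42 CPM).

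Ifit1, the sensor of incompletely methylated caps, was the most abundant member with CRISPRa. Its counts were 7264, 7261 and 6931 in CRISPRa replicates 2, 3 and 5, against 152, 184 and 150 for replicates 2, 3 and 4 of no sgRNA. The CRISPRa libraries differed little from each other and all stood far above the controls. The mean rose from 5.31 ± 0.780 to 216 ± 6.04 CPM (SD, n = 3), or 5.35 ± 0.10 (SE) on the log2 scale and 40.7-fold (adjusted p 8.00e-15 in edgeR). By mean CPM it moved from rank 10488 of the tested genes without sgRNA to rank 902 with CRISPRa.

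Ifit2, known for promoting apoptosis and for binding AU-rich RNA, was the most abundant member without sgRNA. It had 3110, 2682 and 2709 counts with CRISPRa and 426, 402 and 396 counts without sgRNA. It was the member with the highest level in every control library, and its libraries were again tight within each group. The mean rose from 13.3 ± 0.746 to 85.3 ± 4.34 CPM (SD, n = 3), or 2.68 ± 0.09 (SE) on the log2 scale and 6.40-fold (adjusted p 3.64e-12 in edgeR).

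Ifit3 and Ifit3b, the near copies, were scarce in control cells. Ifit3 had 576, 554 and 620 counts with CRISPRa and 9, 20 and 0 counts without sgRNA. Ifit3b had 170, 128 and 147 counts with CRISPRa and 4, 0 and 0 counts without sgRNA. Both genes were low in every control library, and the control values scattered widely relative to their size. Ifit3 rose from 0.323 ± 0.338 to 17.6 ± 1.32 CPM (SD, n = 3; 5.78 ± 0.38 (SE) on the log2 scale, adjusted p 4.41e-08 in edgeR). Ifit3b rose from 0.0437 ± 0.0757 to 4.46 ± 0.510 CPM (SD, n = 3; 6.56 ± 0.56 (SE) on the log2 scale, adjusted p 1.23e-06 in edgeR). With so few control counts these fitted values depend on the prior count of the fit. The ratio of summed counts per total count was 56.3 for Ifit3 (95% exact interval 39.1 to 84.4) and 104 for Ifit3b (40.3 to 383), which covers counting error only. Of the 50-base words in their transcripts, 51.2% of Ifit3 and 45.0% of Ifit3b also occur in other genes, almost all in each other. How the authors counted reads that fit both is not given in the sources used here, so the split between them is uncertain.

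The remaining members, named for their likeness to Ifit1, parted from each other. Ifit1bl2, the gene that shares its upstream stretch with Ifit1, had 172, 159 and 151 counts with CRISPRa and 2, 5 and 8 counts without sgRNA. Ifit1bl1 had 49, 63 and 58 counts with CRISPRa and 40, 22 and 26 counts without sgRNA. Ifit1bl2 was nearly absent from controls and present in each CRISPRa library, whereas Ifit1bl1 was low in all 6 libraries and its groups nearly met. Ifit1bl2 rose from 0.162 ± 0.0937 to 4.84 ± 0.171 CPM (SD, n = 3), or 4.86 ± 0.37 (SE) on the log2 scale (adjusted p 3.22e-07 in edgeR). Its ratio of summed counts was 30.0 (95% exact interval 18.0 to 54.0, counting error only). Ifit1bl1 stood at 1.71 ± 0.262 against 0.958 ± 0.309 CPM (SD, n = 3), or 0.84 ± 0.37 (SE) on the log2 scale (adjusted p 0.133 in edgeR), which did not pass. Shared words were few for these genes, 9.34% for Ifit1bl2, 6.45% for Ifit1bl1 and 7.13% for Ifit1, and none for Ifit2.

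The authors' deposited table, which covers 8 samples, does not state its direction. Its sign was read as CRISPRa over no sgRNA because the members are positive there and higher with CRISPRa in the counts, so the sign is no separate check. In the authors' deposited table all 6 members had an adjusted p under 0.05, beside 9.94% of its 20581 genes called higher. The authors' deposited table gives log2 fold changes of 5.41 for Ifit1 (SE 0.0926), 2.61 for Ifit2 (SE 0.0987), 5.99 for Ifit3 (SE 0.796), 6.70 for Ifit3b (SE 0.690) and 4.69 for Ifit1bl2 (SE 0.371). For Ifit1bl1 the authors' deposited table gives 1.10 (SE 0.318) with an adjusted p of 0.00325, while the 6 libraries gave 0.84 and 0.133. DESeq2 on the same 6 libraries gave 0.85 and an adjusted p of 0.116 for Ifit1bl1, close to edgeR. The part of the 2 further samples in that table was not tested.

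The shares of Ifit1 and Ifit2 in the family's counts did not overlap between the groups. Ifit2 held 67.3%, 63.5% and 68.3% of the summed IFIT counts in no-sgRNA replicates 2, 3 and 4, and 27.4%, 24.7% and 25.5% in CRISPRa replicates 2, 3 and 5. Ifit1 held 24.0%, 29.1% and 25.9% without sgRNA and 64.1%, 66.9% and 65.3% with CRISPRa. The leading gene was therefore Ifit2 in each control library and Ifit1 in each CRISPRa library. Ifit1bl1 held 4.76% ± 1.44 without sgRNA and 0.520% ± 0.0779 with CRISPRa (SD, n = 3), and Ifit3 held 1.53% ± 1.58 and 5.34% ± 0.432 (SD, n = 3). The exact two-sided permutation test gave p = 0.1 for the share of each member, also after adjustment over the 6 members, and 0.1 is the smallest value that 3 against 3 allows.

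**Figure D2:**
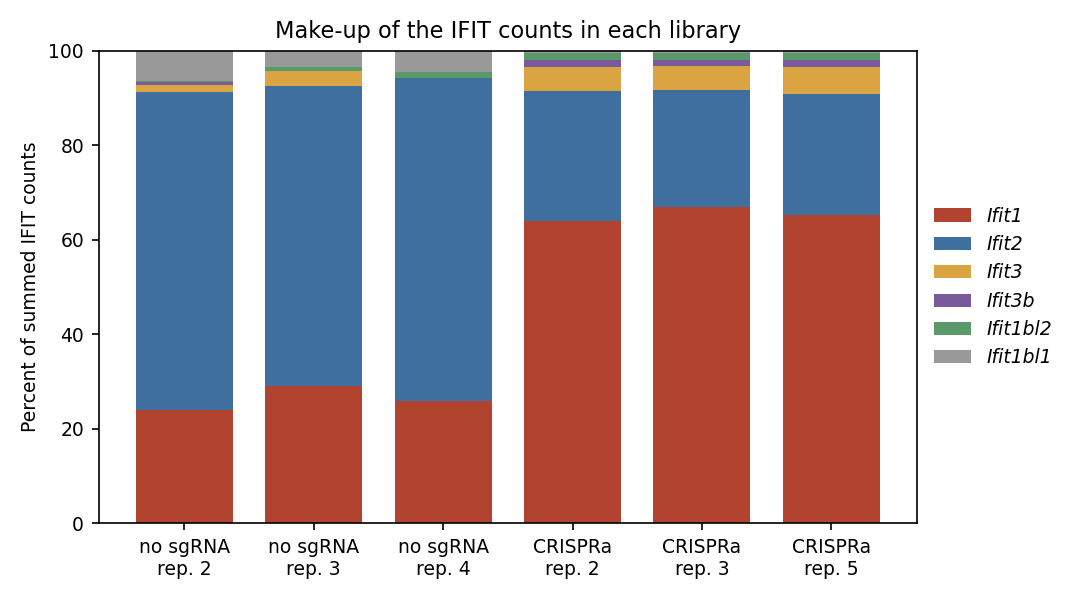
Percentage of the summed counts of the 6 IFIT genes held by each gene (stacked bars, vertical axis from 0 to 100%) in each of the 6 libraries. Ifit2 takes 63.5% to 68.3% of each no-sgRNA bar and 24.7% to 27.4% of each CRISPRa bar, while Ifit1 takes 24.0% to 29.1% and 64.1% to 66.9%.

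Whether members changed by different amounts was tested on the log2 ratio of their counts within a library, over all 15 pairs. The Ifit1 to Ifit2 ratio was -1.48, -1.13 and -1.40 on the log2 scale without sgRNA and 1.22, 1.44 and 1.36 with CRISPRa, a difference of 2.67. The Ifit1bl1 to Ifit1bl2 ratio was 4.02, 2.03 and 1.64 without sgRNA and -1.80, -1.33 and -1.37 with CRISPRa, a difference of -4.06. In both pairs the order of the genes turned over between the groups. The groups did not overlap for 9 pairs, each of which holds Ifit2 or Ifit1bl1, so these pairs are not separate results. Each gave an exact two-sided permutation p of 0.1, or 0.167 adjusted over the 15 pairs. How often ratios of other gene pairs separate was not computed. For single genes, the groups did not overlap in 36.4% of those tested. For the 6 pairs among Ifit1, Ifit3, Ifit3b and Ifit1bl2 the groups overlapped, with exact permutation p-values from 0.4 to 1. The Ifit1 to Ifit1bl2 ratio was 5.93, 5.07 and 4.15 without sgRNA and 5.40, 5.51 and 5.52 with CRISPRa, a difference of 0.43 that became -0.026 without no-sgRNA replicate 4 and 0.87 without no-sgRNA replicate 2. With 1 control library left out, the exact permutation p of each of these pairs except Ifit3 to Ifit1bl2 reached 0.1 in 1 case, the smallest that 3 against 2 allows, so their overlap depends on single control libraries. Few control counts of Ifit3, Ifit3b and Ifit1bl2 limit what could be seen in these pairs.

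Levels of different genes were compared as CPM divided by exon length in kilobases (RPKM). With CRISPRa the order was Ifit1 (81.2 ± 2.27), Ifit2 (21.7 ± 1.11), Ifit3 (10.1 ± 0.755), Ifit3b (2.23 ± 0.255), Ifit1bl2 (1.44 ± 0.0506) and Ifit1bl1 (0.758 ± 0.116 RPKM, SD, n = 3). No neighbours in that order had overlapping library values. Without sgRNA the order was Ifit2 (3.40 ± 0.190), Ifit1 (2.00 ± 0.294), Ifit1bl1 (0.424 ± 0.137), Ifit3 (0.185 ± 0.193), Ifit1bl2 (0.0482 ± 0.0278) and Ifit3b (0.0219 ± 0.0378 RPKM, SD, n = 3). In that group the library values of Ifit1bl1 and Ifit3 overlapped, as did those of Ifit3 and Ifit1bl2 and of Ifit1bl2 and Ifit3b. If reads in shared words had not been counted at all, the CRISPRa level per unshared kilobase would be 20.7 RPKM for Ifit3, close to Ifit2, and 4.06 RPKM for Ifit3b. That alternative was chosen after the data were seen.

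Genes around the cluster were compared to see whether a difference reached beyond it. Of 29 other genes within 0.5 Mb, 7 passed the filter, 2 rose and 1 fell (background shares 9.47% and 9.25%). The nearest tested gene on either side of the cluster rose, each by much less than the IFIT genes. Lipa, the lysosomal acid lipase 23.2 kb before the cluster, had 1951, 1839 and 1680 counts with CRISPRa and 1262, 1324 and 1230 without sgRNA (0.40 ± 0.08 (SE) on the log2 scale, adjusted p 0.00318 in edgeR). Slc16a12, a membrane transporter 18.4 kb after it, had 2171, 2073 and 1875 counts against 1568, 1468 and 1338 (0.37 ± 0.09 (SE) on the log2 scale, adjusted p 0.00832 in edgeR). Acta2, smooth muscle actin, fell by 1.28 on the log2 scale (edgeR adjusted p 0.000718), from 2778, 3032 and 4146 counts without sgRNA to 2010, 1628 and 824 with CRISPRa. Its most distant values are those of CRISPRa replicate 5 and no-sgRNA replicate 4. Stambpl1 (0.22), Fas (-0.072), Pank1 (-0.20) and Kif20b (-0.24) did not pass, with edgeR adjusted p-values from 0.0796 to 0.927. Ch25h, the cholesterol hydroxylase gene beside Lipa, had at most 3 counts in any library and was singled out after its values were seen. In a wider window of 1 Mb, 8 of 47 other genes passed the filter, 3 rose and 1 fell. Lipo3, 789 kb before the cluster, rose by 0.36 ± 0.11 (SE) on the log2 scale (adjusted p 0.0361 in edgeR), near the values of Lipa and Slc16a12. It too was singled out after its values were seen.

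**Figure D3:**
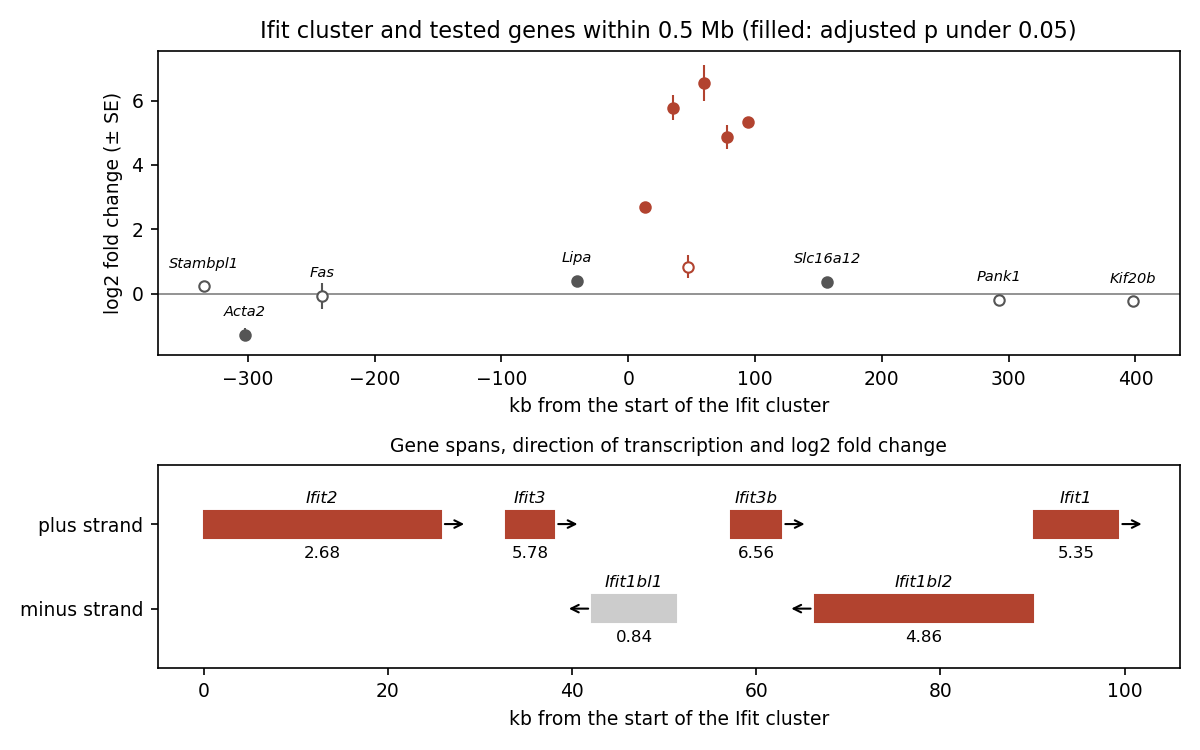
Top, log2 fold change (± SE) of the IFIT genes (red) and of the 7 other tested genes within 0.5 Mb (grey) against distance in kb from the start of the cluster, filled where the adjusted p was under 0.05. Bottom, gene spans to scale with arrows for the direction of transcription and the log2 fold change under each gene; the grey bar, Ifit1bl1 (0.84), lies between Ifit3 (5.78) and Ifit3b (6.56).

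Genes of interferon ligands, sensors and receptor signalling were compared next. Whether any of them changed before the IFIT genes or together with them was not tested. Of 21 interferon ligand genes, 20 had 0 counts in every library, Ifnb1 and all listed Ifna genes among them. With 0 counts the limit of detection was 0.0876 to 0.101 CPM per library. Ifnz had 8 counts in CRISPRa replicate 3, 2 counts in no-sgRNA replicate 2 and 0 elsewhere. Of 16 sensors, adaptors and kinases, 13 were tested, 8 rose and 1 fell (background shares 9.47% and 9.25%), with a median log2 fold change of 0.72. The RNA sensor genes Ddx58 (log2 fold change 3.70, edgeR adjusted p 1.67e-13) and Ifih1 (5.10, adjusted p 2.13e-09) and the interferon regulatory factor Irf7 (6.15, adjusted p 8.58e-14) rose, from 9.76 to 127, from 1.19 to 40.6 and from 2.05 to 145 CPM. Mavs and Tbk1 were the most abundant genes of this list without sgRNA, and Irf7 and Ddx58 with CRISPRa. The kinase gene Tbk1 rose from 73.5 to 88.6 CPM (edgeR adjusted p 0.0186), and Mavs, the adaptor of the RNA sensors, fell from 98.4 to 78.1 CPM (adjusted p 0.0113).

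Of 11 genes of interferon receptor signalling, all were tested, 6 rose and none fell (background shares 9.47% and 9.25%). The median log2 fold change was 1.25. Among those that rose, Stat2 stood at 124 ± 15.4 against 31.0 ± 1.90 CPM (log2 fold change 2.00) and Irf9 at 130 ± 5.19 against 23.3 ± 0.599 CPM (2.48; SD, n = 3; edgeR adjusted p-values from 1.49e-12 to 4.29e-10). The receptor gene Ifnar1 (0.0095, edgeR adjusted p 0.946) and the kinase gene Jak1 (0.10, adjusted p 0.343) did not pass. The sensor genes, Irf7, Stat2 and Irf9 were named for their roles after their values were seen.

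Other RNA-directed interferon effectors rose with the IFIT genes. Of 16 genes, 15 were tested and all 15 rose (background share higher 9.47%). Their log2 fold changes had a median of 4.14 and ran from 1.03 to 10.37. The highest value is that of Oas2, named after its values were seen. It had 4, 0 and 2 counts without sgRNA, so its fitted value depends on the prior count of the fit. The 2 most abundant of the list were Bst2 and Zc3hav1, with Bst2 first with CRISPRa and Zc3hav1 first without sgRNA. Bst2 (tetherin) stood at 419 ± 44.8 against 87.1 ± 5.38 CPM, and Zc3hav1, a binder of CpG-rich viral RNA, at 410 ± 28.4 against 201 ± 13.7 CPM (SD, n = 3). The spread over the CRISPRa libraries was also compared. In replicate 5, the 5 members with at least 50 counts in each CRISPRa library lay between -0.083 and 0.18 on the log2 scale from the mean of replicates 2 and 3, and the 15 effectors between -0.078 and 0.80. The highest effectors were Oas1a, Oas2 and Oas3 (0.66 to 0.80), whereas Oasl1 (0.20), Oasl2 (0.15), Mx1 (0.040) and Cmpk2 (0.020) lay near the IFIT genes. These values are a description, and the effectors named for them were picked after their values were seen.

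IFIT proteins act on capped RNA and on eIF3, so genes of both were listed. Of 9 cap enzyme genes, all were tested, 1 rose and 1 fell, near the background shares. Dcp2, a decapping enzyme, rose from 67.4 to 98.6 CPM (log2 fold change 0.55, edgeR adjusted p 0.000113), and Pcif1, which methylates the first adenosine after the cap, fell from 63.5 to 53.3 CPM (-0.25, adjusted p 0.0376). With CRISPRa replicate 2 or 5 or no-sgRNA replicate 3 or 4 left out, 1 gene of the list passed. Cmtr1, the cap 2′-O methyltransferase, named for its role after its values were seen, stood at 1.76 ± 0.281 against 1.36 ± 0.0608 CPM (SD, n = 3; edgeR adjusted p 0.470), and Rnmt at 92.7 against 88.7 CPM (adjusted p 0.614). Of 14 eIF3 subunit genes, all were tested, 5 fell and none rose (background share lower 9.25%), with a median log2 fold change of -0.16. Those that fell were Eif3e, Eif3f, Eif3h, Eif3k and Eif3l, by 0.22 to 0.32 on the log2 scale. The most abundant subunits, Eif3a (-0.0055) and Eif3c (-0.062), did not pass. Leaving out CRISPRa replicate 2 or 3 lowered the count to 2, and leaving out CRISPRa replicate 5 or no-sgRNA replicate 3 or 4 lowered it to 3.

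**Figure D4:**
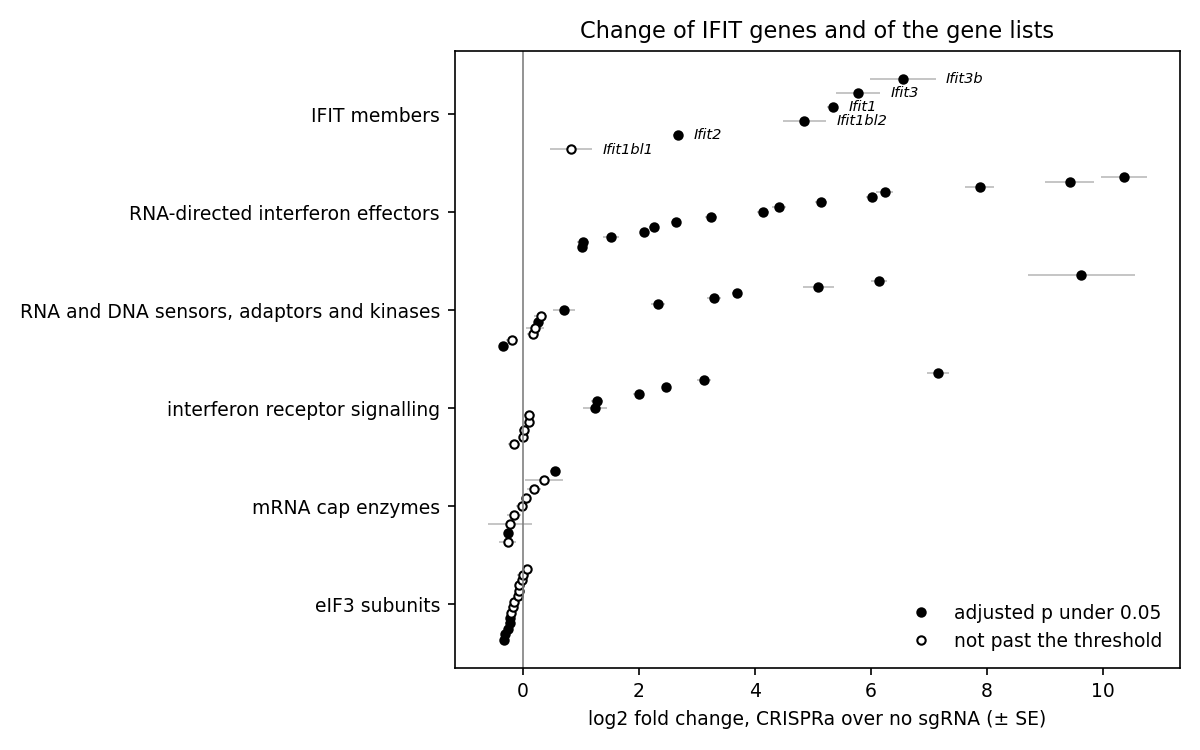
Log2 fold change (CRISPRa over no sgRNA, ± SE) of every tested gene of the IFIT family and of 5 lists, filled where the adjusted p was under 0.05. The effectors all lie right of 0, the eIF3 subunits lie between -0.32 and 0.074, and the value furthest right among the sensors, Zbp1 (singled out after its values were seen), is fitted to control counts that are all 0 (against a floor of 3 counts per library it was at least 31.9-fold higher).

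The genes whose pattern over the 6 libraries was most like that of Ifit1 were Parp14, Gbp2, Oasl1, Apol9a and Apol9b, by the root mean square difference of centred log2 CPM among 12852 genes. The differences were 0.133 for Parp14, 0.183 for Gbp2, 0.199 for Oasl1, 0.235 for Apol9a and 0.293 for Apol9b. The measure largely reflects the difference between the groups and says little of variation within them. The log2 fold changes of Parp14 (5.55), Oasl1 (5.14), Apol9a (5.06) and Apol9b (5.75) lay near that of Ifit1 (5.35). The other members were less like Ifit1 on this measure, from 0.565 for Ifit1bl2 and 0.621 for Ifit3b through 1.04 for Ifit3 and 1.34 for Ifit2 to 2.28 for Ifit1bl1. Parp14, a mono-ADP-ribosyltransferase, stood at 137 against 2.91 CPM and Oasl1 at 128 against 3.60 CPM, beside 216 against 5.31 CPM for Ifit1. Gbp2 stood at 2.39 CPM with CRISPRa and had 0 counts in every no-sgRNA library, so its place depends on the prior count of 2. The same prior count weighs on the low control counts of Ifit3, Ifit3b and Ifit1bl2, and the order is a description.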

How the data were processed

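RNA-seq of transfected Neuro2a cells was analysed from a gene table of raw counts and a table of the authors' own comparison. Per the submitters' processing notes, STAR 2.5.1b, featureCounts and mm10 are named without a role, and the deposited counts are whole reads per gene with no normalisation. The annotation, the use of strand and the handling of reads with several hits are not given in the sources used here. The table also lists exon length in bases per gene. The authors' deposited comparison has the layout of a DESeq2 table, per the file headers. Per the file headers, the authors computed a signal (the mean normalised count), log2 fold changes with their SE, a Wald statistic (a score) and p-values; the table is named for 8 samples and was copied unchanged.

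Counts were fitted with edgeR 4.0.16 in R 4.3.3 (quasi-likelihood test, filterByExpr defaults, TMM factors from 0.978 to 1.01, no covariate) over 15117 genes, with Benjamini-Hochberg adjustment over all of them. Libraries held 29739422 to 34248514 counts. All 55367 rows name a gene. Each SE was obtained as |log2 fold change| over sqrt(F). Ratios between members used a pseudocount of 0.5 counts and log2 CPM a prior count of 2. Shares and ratios were tested with exact permutations. Shared words are 50-base words of GENCODE M21 transcripts found in another gene on either strand. Sequences were aligned with Biopython 1.88. Alternatives were other scalings (RLE, upper quartile, library size), no filter, a minimum of 1 CPM required in 3 or more libraries, limma-voom (limma 3.58.1), DESeq2 1.42.0, omission of each library, the replicate block and wider windows. The fits were also run on simulated counts with the same dispersion for every gene. That setting is simpler than these data, so the run does not measure error here.

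The members and lists were chosen with earlier results of these data known. The named genes are the members, Scn2a, tested genes near the cluster, the 2 most abundant genes of each list and any changed against the members' direction, and the 5 genes most like Ifit1 with a mean CPM of at least 1. Genes named outside this rule are marked as such. Some genes of the lists are counted but not reported here by name. Counts of 2 of the 8 samples were not analysed here.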

Additional observations from a re-analysis of the deposited data

How the results depend on the processing

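The count of 5 changed members was the same in all 15 alternative fits, and the same 5 genes passed in each. The median log2 fold change over all 6 members lay between 4.90 and 5.22. Ifit1 ran from 5.27 to 5.47, Ifit2 from 2.63 to 2.71 and Ifit1bl2 from 4.49 to 5.36, while Ifit3 (5.12 to 6.91) and Ifit3b (5.98 to 10.17) moved more, with few control counts. Ifit1bl1 passed in 0 of 15 fits, DESeq2 (adjusted p 0.116) and limma-voom (0.117) included, although its unadjusted edgeR p was 0.0383, and its adjusted p ran from 0.0766 to 0.314. The median log2 fold change over all tested genes stayed within -0.0071 and 0.011 in all of these fits. Genes changed numbered from 1987 to 3170.

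The labels do not say whether numbers shared by the groups mark paired libraries. The deviations of replicates numbered 2 and 3 from their group means correlated at -0.0046 and -0.026 across genes. The differences between replicates 2 and 3 correlated at 0.0045 between the groups. These values do not settle whether libraries shared a culture or a day. With the replicate block on the 4 libraries numbered 2 and 3, 5 members were changed. The median log2 fold change over all 6 members was 5.20, as it was for the same 4 libraries unblocked. The block gave 3170 changed genes, against 2830 for the same libraries unblocked. Both fits rest on the closest pair of libraries in each group, so they understate the spread seen over all 6.

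The cap enzyme count was 1 for the 4 libraries unblocked and from 1 to 2 when 1 library was left out, and the eIF3 count was from 2 to 5; the cause was not tested. On the 4 libraries the eIF3 count was 4, blocked or not. It was 6 with DESeq2 and with limma-voom. With RLE scaling, library size only or the minimum of 1 CPM it was 4. Of the ratios among Ifit1, Ifit3, Ifit3b and Ifit1bl2, 4 changed sign and 2 did not. The difference in the Ifit1 to Ifit3 ratio ran from -2.50 to 0.029 with 1 library left out, Ifit1 to Ifit1bl2 from -0.026 to 0.87, Ifit3 to Ifit1bl2 from -0.055 to 2.95, and Ifit3 to Ifit3b from -1.24 to 1.44, or 0.18 with a pseudocount of 1; the cause was not tested. The Ifit1 to Ifit2 difference stayed between 2.60 and 2.78.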
